A study of Mus musculus with 9 samples.

Results

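Liver plasma cells were taken from 1 single-cell RNA-seq matrix of mouse liver as the cells with at least 200 detected genes, at least 5 UMIs of Jchain, at least 3 UMIs over Mzb1, Derl3 and Tnfrsf17 together, and 0 UMIs of Siglech. UMIs are molecular tags that let copies made by PCR be counted once. The rule kept 196 of 4617 cells, or 4.25% (exact Clopper-Pearson 95% interval 3.68 to 4.87; all intervals given here cover counting error only). The matrix is labelled CluKO, which reads as a knockout of the clusterin gene Clu, on the C57BL/6J strain, with an age label of 6-8 weeks. Per the series' text these mice received injections of the liver toxin CCl4 together with recombinant human clusterin, a group size of 3 mice is named there, and 6 samples carry the label. Their barcodes hold no sample name, so the matrix is 1 pooled sample without replicates, and how many animals gave plasma cells cannot be told. The labels do not state for how many weeks this group received CCl4. The 3 wild-type samples (CCl4 for 0, 2 and 4 weeks) were not analysed here. No comparison between genotypes or times was therefore made.

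Plasma cells are the end stage of the B lineage and secrete antibody. Jchain joins IgA and IgM into polymers, and Mzb1 and Derl3 work in the endoplasmic reticulum (ER), where heavy and light chains are folded. Tnfrsf17 (BCMA) is a receptor of the survival factor APRIL. The transcription factors Irf4 and Blimp-1 (gene Prdm1) close the B cell programme, and Xbp1, activated by the ER sensor IRE1 (gene Ern1), widens the secretory apparatus. In mouse, IgA plasma cells are best known from the gut wall, and polymeric IgA is carried across epithelia by the receptor encoded by Pigr.

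Clu itself had 13753 UMIs in 1472 of the 4617 cells, with a UMI in 98.5% of the cells that carried mesothelial markers. The counts thus go against a label that reads as a knockout. The labels do not say which part of the gene the allele lacks, so the matrix is called the matrix labelled CluKO throughout. Plasma cells held 16 Clu UMIs in 14 cells and 1 UMI of the clusterin receptor gene Lrp2.

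The label of the cells was checked on markers that the rule did not use. Xbp1 (chr11:5520659-5525893, GRCm38) had a median of 13 UMIs per plasma cell, with a range of 0 to 93, and was at 0 in 2 of the 196 cells. The highest count in any other cell was 18. After thinning every cell to 1000 UMIs outside immunoglobulin genes, a Xbp1 UMI remained in 89.3% of plasma cells and in 18.9% of the 4421 other cells. Of the 16 genes on the B cell list, Pax5, Fcer2a and Ighd had 0 UMIs in the 196 cells. Of the 12 with enough counts, 6 were at least 2-fold higher than in the other cells and 5 lower, so this list was split. Ciita, of the MHC class II list, also had 0 UMIs. The Xbp1 counts go with the plasma cell label.

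The rule's edges were sharp for nearly all cells. The lowest Jchain counts inside the rule were 6 UMIs (3 UMIs of the other rule markers, 1.61% of UMIs from immunoglobulin) and 9 UMIs (4 of the others, 3.39%), and the next cell already had 52. Outside it, 12 cells had at least 5 Jchain UMIs but fewer than 3 of the others. Of these 12, 2 cells had 82 and 382 Jchain UMIs with 54.3% and 82.4% of their UMIs from immunoglobulin, and the other 10 had 5 to 15 Jchain UMIs. A further 8 cells had at least 3 UMIs of the other markers and at most 1 Jchain UMI. No cell was refused for Siglech.

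Immunoglobulin RNA filled the plasma cells. Of their 1906983 UMIs, 53.3% came from immunoglobulin genes or Jchain, against 0.101% in the other cells. Plasma cells thus held 97.4% of all UMIs of these genes in the kept cells. Jchain, a gene of the rule, gave 75415 of those in plasma cells, so a part of these shares follows from the rule. The share per cell ran from 1.61% to 89.8% with a median of 50.2%, and passed 50% in 99 of the 196 cells. Total depth per plasma cell had a median of 8878 UMIs (2607 to 34803), against 4734 in the other cells. Outside immunoglobulin the order was the opposite, with medians of 3637 and 4725 UMIs. Detected genes had medians of 1548 and 1845 per cell.

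IgA was the leading class. A plasma cell was classed by the heavy chain constant gene that held at least 50% of its heavy constant UMIs. The IgA gene Igha (chr12:113254830-113260236) led in 169 of 196 cells, or 86.2% (80.6 to 90.7). IgG genes led in 26 cells, or 13.3% (8.85 to 18.8). Within IgG, Ighg1 led 10 cells, Ighg2c 9 cells and Ighg2b 7 cells. The IgM gene Ighm led 1 cell. Ighd, Ighg3 and Ighe led none, which allows a share of up to 1.53% each by a limit of 3 counts (exact upper bound 1.86%).

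**Figure D1:**
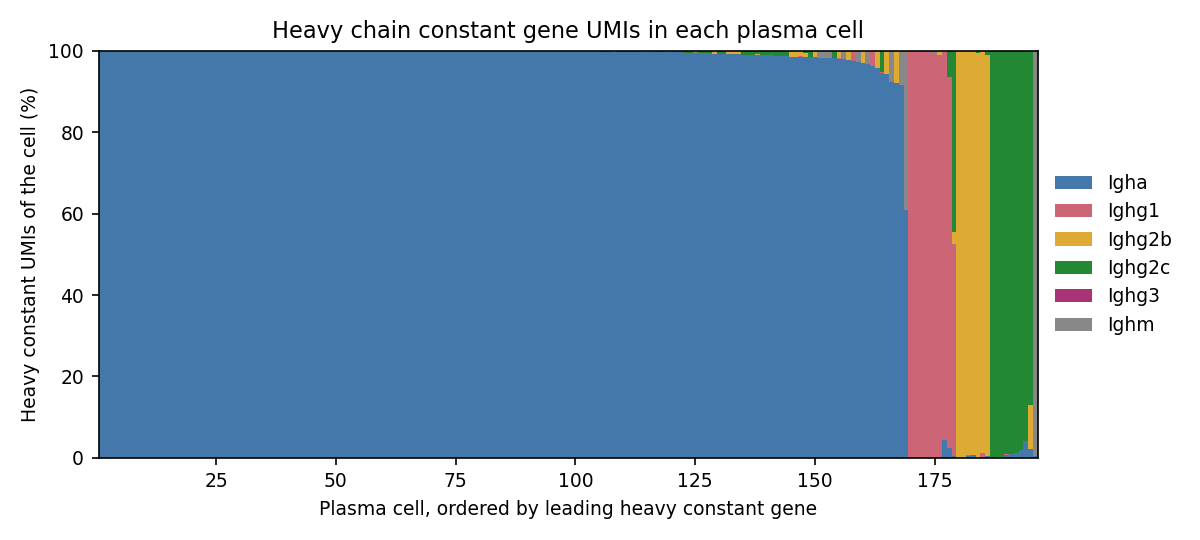
Each column is 1 of the 196 plasma cells and shows the percent of its heavy constant UMIs from each gene, ordered by the leading gene. The 169 columns led by Igha fill most of the width, and 187 of 196 columns are at least 95% 1 gene.

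The class of single cells was nearly pure. The leading gene held a median of 99.9% of a cell's heavy constant UMIs, at least 95% in 187 cells and at least 99% in 153 cells. Heavy constant UMIs per cell ran from 25 to 8821 with a median of 1120. The reading of Ighg2b against Ighg2c is less certain than that of Igha, because these genes are close copies of each other and how reads shared by both were counted is unknown here.

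Light chains were almost all kappa. The kappa constant gene Igkc (chr6:70726435-70726966) led in 188 of 196 plasma cells, or 95.9% (92.1 to 98.2), and a lambda constant gene led in 8. Of the lambda cells, Iglc1 led 6 and Iglc2 led 2. Among IgA cells 6 of 169 were lambda, and among cells of another class 2 of 27 were. In 185 of the 188 kappa cells Igkc held over 90% of the light constant UMIs.

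Immunoglobulin RNA was also met at a low level outside the plasma cells, among others in cell types that do not make it. An Igha UMI was present in 60.0% of the 4421 other cells, with a median of 1 UMI and a highest count of 1347. These cells include 20 B-cell-marker cells and 2 cells with over 5% of their UMIs from immunoglobulin. The share was 64.6% in macrophage-marker cells (median depth 5252 UMIs), 43.5% in T-cell-marker cells (3540.5 UMIs) and 49.9% in hepatocyte-marker cells (3606 UMIs). Of the 27 plasma cells of another class, 24 had an Igha UMI, with a median of 3 and a highest count of 22. Igha counts of this size were read as background and not as a class. Their source was not tested.

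Variable genes differed widely between cells. A leading heavy variable gene (at least 5 Ighv UMIs) could be given for 89 plasma cells, and these used 38 genes. Ighv1-26 led in 12 of the 89, or 13.5% (7.17 to 22.4), Ighv1-64 in 7, and Ighv1-76 and Ighv1-81 in 5 each. The Ighv1 family led in 67 of the 89 cells. For kappa, 171 cells had a leading gene among 51. Igkv6-23 led in 19 of the 171, or 11.1% (6.82 to 16.8), Igkv19-93 in 14, Igkv1-117 in 13 and Igkv12-46 in 11.

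Most heavy and kappa pairs were seen once. Among the 85 cells with both genes there were 72 pairs, and 7 pairs occurred in more than 1 cell, together 20 cells. Ighv1-26 stood with Igkv12-46 in 5 cells and with Igkv6-23 in another 5. Of these 10 cells 9 were IgA. The other 5 repeated pairs were in 2 cells each. Variable genes of 1 family are near copies, the files give gene counts and no junction sequence, and mice cannot be told apart, so a shared pair is not shown to be a shared clone.

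**Figure D2:**
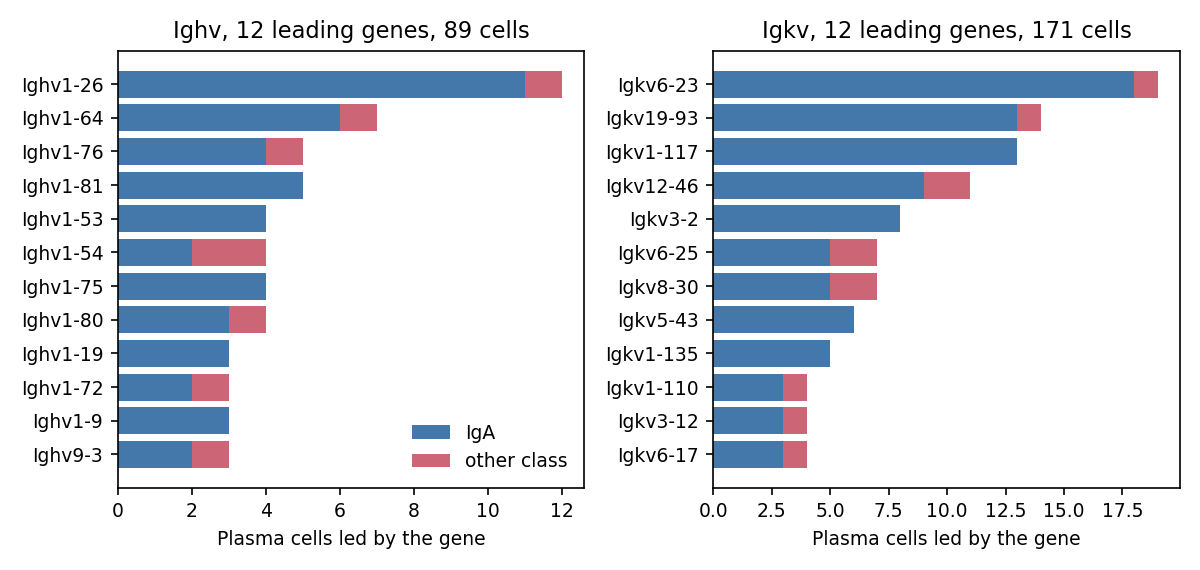
Bars count the plasma cells led by each of the 12 most frequent heavy (left, 89 cells) and kappa (right, 171 cells) variable genes, split into IgA and other classes. Ighv1-26 with 12 cells and Igkv6-23 with 19 cells lead, and many genes follow with few cells each.

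Outside immunoglobulin, plasma cells were set against the 4421 other cells of the matrix. Counts were summed over cells and are given as CPM, that is per 1000000 UMIs outside immunoglobulin genes. Because the cells were chosen by their counts and only 1 pooled matrix exists, these ratios are descriptions without a test. Among 13686 genes whose counts summed to 30 or more, 10.7% were at least 2-fold higher in plasma cells and 37.9% at least 2-fold lower. The median log2 ratio of all these genes, with 20 CPM added to each side, was -0.11. If immunoglobulin UMIs are counted in the total, every plasma cell CPM is 53.3% lower, the median moves to -0.40, and the share of higher genes among those called goes from 22.1% to 4.33%. Counts of called genes under that total are given beside the groups below. Each group count is to be read beside the share of all genes, which with all UMIs was 401 higher and 8859 lower of 13686.

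The genes furthest above the other cells were of the B lineage and of the secretory route. Eaf2 (chr16:36792884-36875003), a partner of the ELL elongation factors, had 667 CPM (594 UMIs in 167 cells) against 0.971 CPM, or 686-fold (464 to 1060). Ccr10, a receptor for mucosal chemokines, had 254 CPM (226 UMIs) against 0.523, or 485-fold (283 to 901). The Oct coactivator gene Pou2af1 had 380 CPM against 0.859, or 443-fold (290 to 708). These 3 genes were close to absent elsewhere, with 26, 14 and 23 UMIs in all other cells together.

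Other leading genes were also present in other cells at lower levels. Vpreb3, a relative of the surrogate light chain, was 339-fold higher, and Lax1, a lymphocyte adaptor, 301-fold. Trp53inp1, a stress protein induced by p53, was 31.1-fold higher (27.8 to 34.7). Fam46c, a poly(A) polymerase, was 25.3-fold higher (22.5 to 28.5). Tspan13, a tetraspanin, was 17.6-fold higher (16.1 to 19.2) and Pycard, the inflammasome adaptor ASC, 15.97-fold (15.3 to 16.7). The remaining leading genes, Txndc5, Herpud1, Xbp1, Edem1, Creld2 and Sec11c, belong to the ER groups below.

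The genes furthest below were those of myeloid, mesothelial and injured liver cells. They were Saa3, Spp1, Gpnmb, C3, Mpo, Cd63, Anxa1, Sparc, Lcn2 and Cd36, between 27.6-fold and 69.7-fold lower. The acute phase gene Saa3 had 86.4 CPM in plasma cells and 3489 CPM in the others.

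Marker lists of other cell types gave the makeup of this background. All 10 hepatocyte, all 12 macrophage and all 10 neutrophil markers were at least 2-fold lower in plasma cells, as were 8 of 9 mesothelial markers. The remaining mesothelial gene, Slpi, is described further on. Haemoglobin and other erythroid markers were found in all 196 plasma cells, with 11 to 1300 UMIs per cell, at 12055 CPM against 19278 CPM in the other cells. Plasma cells do not make these transcripts. The gate of B cell markers was passed by 123 of the 196 plasma cells, which carry Cd79a and Cd79b as described further on, so it does not set B cells apart from them. Apart from that gate, 6 plasma cells passed the marker gate of another class: 3 of macrophages and 1 each of T cells, dendritic cells and hepatocytes. Below, the gate of another class means one other than that of B cells.

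Transcription factors of plasma cells stood well above the other cells. Of 11 on the list, 9 were at least 2-fold higher and none was lower, with a median log2 ratio of 2.72 (8 higher, 1 lower and 1.79 with all UMIs in the total). Xbp1 had 3818 CPM against 238, or 16.1-fold (15.4 to 16.7). Irf4 had 185 CPM against 1.27, or 146-fold (100.3 to 218), and Prdm1 had 170 CPM against 8.78, or 19.3-fold (15.6 to 23.8). Both are transcripts of low count, with a UMI in 80 and in 92 of the 196 cells.

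The other factors of the list ranged more widely. Ikzf3, encoding the lymphoid factor Aiolos, was 59.2-fold higher and Bhlha15, encoding the secretory cell factor Mist1, 28.1-fold. Ell2, an elongation factor that favours the secreted form of heavy chain mRNA, was 15.8-fold higher (14.2 to 17.5), and Mef2c 11.1-fold. Creb3l2, a relative of ATF6 that is cut at the Golgi, was 4.27-fold higher. Ikzf1 had 77.4 CPM against 53.9, and Zbtb20 had 37.0 against 64.0, so neither reached 2-fold.

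The secretory route was high from its first step to its last. The list of translocation into the ER had 17 of 21 genes at least 2-fold higher and none lower (median 1.80; 9 higher and 0.76 with all UMIs). Ssr4 and Ssr2, subunits of the translocon-associated complex, were 7.14-fold and 6.99-fold higher. Sec61a1, the channel itself, was 6.65-fold higher (6.11 to 7.23). Sec11c, a catalytic subunit of signal peptidase, had 3258 CPM against 234, or 13.9-fold.

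Chaperones and disulfide enzymes of the ER formed the largest secretory group. Of 30 genes, 24 were at least 2-fold higher and none was lower, with a median of 1.98 (15 higher, 1 lower and 0.93 with all UMIs). Their summed level was 46843 CPM against 10898. Hsp90b1 (GRP94), a chaperone of immunoglobulin and Toll-like receptors, had 10173 CPM against 1198, or 8.49-fold (8.30 to 8.69). Hspa5 (BiP), which holds free heavy chains, had 6086 CPM against 1911, or 3.19-fold (3.10 to 3.28). Txndc5, a disulfide isomerase, was 22.2-fold higher (20.97 to 23.5), Creld2 14.4-fold and Pdia4 12.7-fold. Calr and Canx, the lectin chaperones, were 2.09-fold and 1.37-fold higher, so the group did not stand at 1 level.

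N-glycosylation and ER-associated degradation followed. Of 15 glycosylation genes, 10 were at least 2-fold higher and none was lower (median 1.03; 2 higher, 1 lower and 0.14 with all UMIs). Krtcap2, Rpn1 and Ddost, subunits of the oligosaccharyl transferase, were 5.46-fold, 5.22-fold and 4.20-fold higher. Of 15 degradation genes, 13 were at least 2-fold higher and none was lower (median 2.00; 8 higher and 0.93 with all UMIs). Herpud1, a membrane scaffold of that route, was 19.4-fold higher, Edem1, which recognises trimmed glycans, 16.7-fold, and the ubiquitin ligase Syvn1 8.33-fold.

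Transport onward to the Golgi came last. Of 28 genes, 17 were at least 2-fold higher and none was lower, with a median of 1.09 (3 higher, 2 lower and 0.15 with all UMIs). Lman1, a cargo receptor for glycoproteins, was 8.71-fold higher (8.19 to 9.26). The coat genes Sec24a and Cope were 5.52-fold and 3.42-fold higher.

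The unfolded protein response, which matches ER capacity to load, was uneven across its arms. Its 4 sensor genes were each at least 2-fold higher: Atf6 4.19-fold, Atf6b 2.76-fold, Eif2ak3 (PERK) 2.50-fold and Ern1 2.21-fold (1.19 to 3.81, from 14 UMIs). With all UMIs in the total none of the 4 was called. The list of the PERK and CHOP arm had 3 genes higher, 3 lower and 4 between, with a median of 0.07 (-0.25 with all UMIs). Asns, Atf4 and Ppp1r15a were 3.78-fold, 2.61-fold and 2.12-fold higher. The death factor gene Ddit3 (CHOP) had 30.3 CPM against 25.7. Atf3 had 2 UMIs in plasma cells and 3414 in the other cells.

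**Figure D3:**
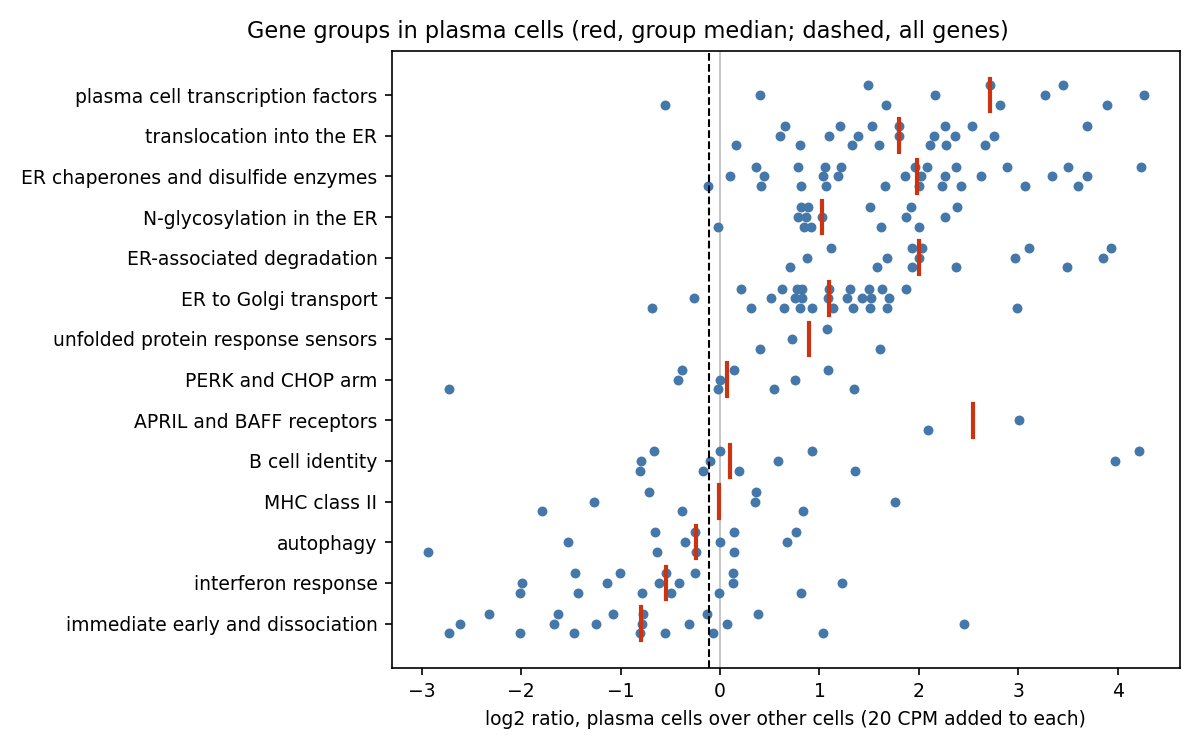
Points are genes whose counts summed to 30 or more, placed by their log2 ratio of plasma cells over other cells with 20 CPM added to each side; Tnfrsf17, used to choose the cells, is left out. Red bars are group medians, highest for the transcription factors (2.72) and near that of all genes (dashed, -0.11) for the PERK and CHOP arm (0.07).

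Promoters of 4 genes are shown because they hold a sequence element known from the unfolded protein response. The ER stress element, CCAAT followed by 9 bases of any kind and CCACG, is bound by NF-Y and by ATF6 or XBP1. It was searched on both strands from 250 bases before to 50 bases after the RefSeq start on GRCm38.p6. It stood in 37 of 27025 genes (0.137%) and in 8 of the 91 genes of the 5 secretory groups that had a promoter (8.79%). Of the 8, 7 were among the 24 chaperones: Calr, Canx, Creld2, Dnajc3, Hsp90b1, Hspa5 and Pdia6. The other was Syvn1. Derl3, a gene of the rule, had it as well. The 250 bases before the start are printed 5′ to 3′ on the gene's strand, with capitals at both ends of each match, for Hspa5 (chr2:34771840-34772089, plus strand), Hsp90b1 (chr10:86705445-86705694, minus strand, 2 matches), Creld2 (chr15:88819396-88819645, plus strand) and Derl3 (chr10:75893148-75893397, plus strand).
Hspa5: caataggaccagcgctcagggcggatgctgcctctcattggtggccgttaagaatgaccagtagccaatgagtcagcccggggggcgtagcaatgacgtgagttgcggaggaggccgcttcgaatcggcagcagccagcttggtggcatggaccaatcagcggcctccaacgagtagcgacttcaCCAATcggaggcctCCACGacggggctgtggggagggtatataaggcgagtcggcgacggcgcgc
Hsp90b1: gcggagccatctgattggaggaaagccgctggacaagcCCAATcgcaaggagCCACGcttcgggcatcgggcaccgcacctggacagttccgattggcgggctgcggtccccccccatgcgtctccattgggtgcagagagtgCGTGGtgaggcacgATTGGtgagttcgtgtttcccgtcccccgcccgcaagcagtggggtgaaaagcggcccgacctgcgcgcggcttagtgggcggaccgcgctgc
Creld2: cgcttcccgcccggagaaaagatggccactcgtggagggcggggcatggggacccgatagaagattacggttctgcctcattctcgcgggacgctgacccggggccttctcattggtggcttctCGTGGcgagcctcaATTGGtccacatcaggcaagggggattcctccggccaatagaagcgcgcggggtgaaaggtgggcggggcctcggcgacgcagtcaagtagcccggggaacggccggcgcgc
Derl3: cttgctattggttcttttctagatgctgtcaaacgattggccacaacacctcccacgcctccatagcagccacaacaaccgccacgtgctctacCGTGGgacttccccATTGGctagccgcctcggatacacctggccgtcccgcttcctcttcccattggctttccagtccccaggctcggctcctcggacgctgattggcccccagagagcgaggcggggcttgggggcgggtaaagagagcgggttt

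In Hspa5 the match runs from 65 to 47 bases before the start, and in Creld2 and Derl3 it lies on the minus strand. Genes with a match differed in their ratios. Creld2 and Hsp90b1 were 14.4-fold and 8.49-fold higher in plasma cells, while Calr and Canx, which also carry it, were 2.09-fold and 1.37-fold higher. Of the related element, ATTGG followed by 1 base of any kind and CCACG, there were 3 matches among the 91 genes (Dnajb11, Herpud1 and Krtcap2), against 0.0444% of all promoters. Its letters can overlap those of the longer element. TGACGTGG stood in 8 of the 91, against 0.714%. These are matches of letters, not measured binding.

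B cell genes were split. Of 12 with enough counts, 6 were at least 2-fold higher in plasma cells and 5 lower, beside 10.7% and 37.9% of all genes. The antigen receptor genes Cd79a and Cd79b had 332 and 609 CPM, 139-fold and 43.9-fold above the other cells. Ms4a1 (CD20) had 36 UMIs in all 196 cells together. The germinal centre factor gene Bcl6, Cd22 and Cd83 had 2, 1 and 2 UMIs.

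Only 20 cells outside the plasma cells passed the B cell marker gate, and levels in them give a scale. Because Cd79a, Cd79b and Ms4a1 chose these cells, their levels there are no finding. For antigen presentation, Cd74 had 7738 CPM in plasma cells and 14924 in B-cell-marker cells. H2-Ab1 had 773 and 2378 CPM and H2-Aa 247 and 2364 CPM. Ciita, the switch of MHC class II transcription, had 0 UMIs in plasma cells and 7 UMIs in the 20 B-cell-marker cells. In the other direction, Xbp1 had 3818 and 260 CPM, Txndc5 2277 and 119, and Hsp90b1 10173 and 1605.

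Against all other cells, the MHC class II list had 1 gene higher, 3 lower and 4 between (0 higher and 4 lower with all UMIs). Among all genes 10.7% were higher and 37.9% lower, so the list was near the shares of all genes. Cd74 was 3.40-fold higher, and H2-Ab1 and H2-Eb1 1.82-fold and 1.30-fold. The peptide loading genes H2-DMa and H2-DMb1 were 2.94-fold and 7.14-fold lower. Many of the other cells are macrophages, which also present antigen, so this contrast is not one against cells that lack the route.

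Surface and homing genes followed. Of 18 surface and adhesion genes, 9 were at least 2-fold higher and 5 lower (7 and 9 with all UMIs). Sdc1 (CD138), the classical surface marker, had 167 CPM against 20.3, or 8.24-fold (6.83 to 9.90), with a UMI in 89 of 196 cells. Slamf7 was 10.4-fold higher (9.58 to 11.4) and Cd28 31.1-fold (25.8 to 37.5). Epcam, an epithelial adhesion gene, had 85 UMIs in 58 plasma cells and 7 UMIs in all other cells. The integrin genes Itga4 and Itgb7, whose products pair to bind gut endothelium, were 5.63-fold and 8.73-fold higher.

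Of 10 chemokine and egress receptors, 5 were at least 2-fold higher and 3 lower (5 and 4 with all UMIs). Besides Ccr10, Cxcr3 was 20.1-fold higher (15.3 to 26.3), S1pr4 7.44-fold and S1pr1 5.24-fold. The gut homing receptor gene Ccr9 was 12.99-fold higher from 16 UMIs. Cxcr4, the receptor that holds plasma cells in bone marrow, had 15 UMIs and was 3.30-fold lower.

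The receptors of APRIL and BAFF were all high. Besides Tnfrsf17, which the rule used, Tnfrsf13b (TACI) had 396 CPM against 31.9, or 12.4-fold (10.9 to 14.1), and Tnfrsf13c (the BAFF receptor) 71.8 CPM against 1.57, or 45.8-fold (30.5 to 69.3). Among 15 genes of survival and apoptosis, 4 were at least 2-fold higher, 1 was lower and 10 lay between (2 higher and 5 lower with all UMIs). The kinase genes Pim2 and Pim1 were 27.5-fold and 6.86-fold higher, and Bcl2 was 3.37-fold higher. Mcl1, on which plasma cell survival is known to depend, had 407 CPM against 230 and did not reach 2-fold.

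Immediate early genes, which tissue digestion can induce, were mostly low in plasma cells. Of 20, 11 were at least 2-fold lower and 2 higher, with a median of -0.79 (17 lower, 1 higher and -1.47 with all UMIs). Dusp1, Egr1, Junb and Fos were 8.04-fold, 6.72-fold, 3.51-fold and 2.22-fold lower. Jund was 5.82-fold higher and Klf2 2.12-fold.

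Genes of amino acid and sugar supply were split. Of 14, 6 were at least 2-fold higher and 3 lower (2 and 7 with all UMIs). Slc7a5, a transporter of large neutral amino acids, was 9.18-fold higher (6.96 to 11.97), Phgdh, the first enzyme of serine synthesis, 8.73-fold (7.57 to 10.04), and Slc1a5, a glutamine transporter, 3.97-fold. The genes lower in plasma cells were those of glucose use, with Ldha 2.15-fold, Slc2a1 2.04-fold and Slc2a3 2.06-fold lower, the last 2 from 7 and 5 UMIs. Of 12 autophagy genes none was higher and 4 were lower (8 lower with all UMIs). Among all genes 37.9% were lower (8859 of 13686 with all UMIs), so the lower genes of this list are near the share of all genes. The lysosomal membrane gene Lamp1 was 8.65-fold lower, while Map1lc3b (LC3B) had 597 CPM against 344.

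Cytokine and interferon genes were mostly low. Of 11 counted genes for cytokines and regulators known from plasma cells, 2 were at least 2-fold higher and 8 lower (1 and 9 with all UMIs). The higher genes were Cd274 (PD-L1), with 44 UMIs in 27 cells and 3.67-fold (2.62 to 5.03), and Il10, with 11 UMIs in 7 cells. Csf2 and Nos2 had 0 UMIs in plasma cells, as did Il12a and Tnf. Of 17 interferon response genes, 1 was higher and 11 were lower, with a median of -0.54 (0 higher, 13 lower and -0.82 with all UMIs). Zbp1, a nucleic acid sensor, was 3.14-fold higher (2.51 to 3.88), and Bst2 (tetherin) had 499 CPM against 276. Oasl2 had 0 UMIs in plasma cells and 1620 in the others, at least 18.0-fold lower against a floor of 3 counts over the group.

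Most members of 3 further marker lists were low. At least 2-fold lower were 7 of 8 markers of conventional dendritic cells, 7 of 8 of endothelium and 6 of 7 of fibroblasts and stellate cells. Of 9 T and NK cell markers 4 were lower and 2 higher, beside 37.9% lower among all genes. The higher ones were Gzma, with 14 UMIs, and Cd4, with 20 UMIs in 15 plasma cells and 26 in all other cells, while Cd3g had 0 UMIs and Cd3d and Cd3e had 6 and 3.

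IgA plasma cells (169) were then set against those of another class (27). The classes were formed from immunoglobulin genes only. Of 4047 genes that summed to 30 counts or more, 15.7% were at least 2-fold higher in IgA cells and 3.78% lower, with a median log2 ratio of 0.14. The groups are of unequal size and come from 1 pool, so no test was made. The largest gap belonged to Slpi, which was not among the genes the naming rule could give because it stands on the mesothelial list. It and the genes Klf2, Ccr10, Itgb7, Ly6a and Ms4a1 were chosen after their values were seen.

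Slpi (chr2:164354070-164389095), which encodes a secreted inhibitor of neutrophil elastase, had its high counts in IgG1 and IgG2b plasma cells. The 10 cells led by Ighg1 held 2041, 365, 156, 129, 72, 38, 5, 4, 4 and 1 Slpi UMIs. The 7 cells led by Ighg2b held 833, 273, 262, 118, 117, 64 and 12. In contrast, the 9 cells led by Ighg2c held at most 13 UMIs, the Ighm cell held 0, and the 169 IgA cells held at most 30 with a median of 0. At least 1 Slpi UMI was present in 78 of the IgA cells and in 6 of the Ighg2c cells. Thus 12 of the 17 cells led by Ighg1 or Ighg2b had at least 30 UMIs, and among the rest 1 IgA cell did.

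In summed counts, Slpi had 429 CPM in IgA cells and 39044 CPM in the other classes, 90.9-fold lower in IgA (81.3 to 102). The 13 cells with at least 30 UMIs held 92.7% of all plasma cell Slpi UMIs. In the cell with 2041 UMIs, Slpi alone made up 24.2% of the UMIs outside immunoglobulin. Without their highest cell, the Ighg1 group had 15474 CPM in place of 48158, and the Ighg2b group 33408 in place of 57963, so single cells set the mean but not the presence.

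Slpi is also a main transcript of mesothelial cells, at 18057 CPM and a median of 79.5 UMIs in the mesothelial-marker cells. The other 8 mesothelial markers together gave 9 UMIs in the 13 Slpi-high plasma cells, 0 to 2 per cell, against a median of 58 and a lowest count of 8 in mesothelial-marker cells. Over all 27 cells of classes other than IgA these 8 markers gave 16 UMIs, with Msln and Wt1 at 0. That is 138 CPM, against 78.7 CPM in IgA cells and 8273 CPM in mesothelial-marker cells. The source of the Slpi counts was not tested. The B cell gate was passed by 12 of the 13 Slpi-high cells, and none of the 13 passed the gate of another class. Their leading heavy gene held at least 91.1% of heavy constant UMIs, and 5 of them were cycling. In the 20 B-cell-marker cells Slpi was at 156 CPM and in macrophage-marker cells at 88.1 CPM.

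**Figure D4:**
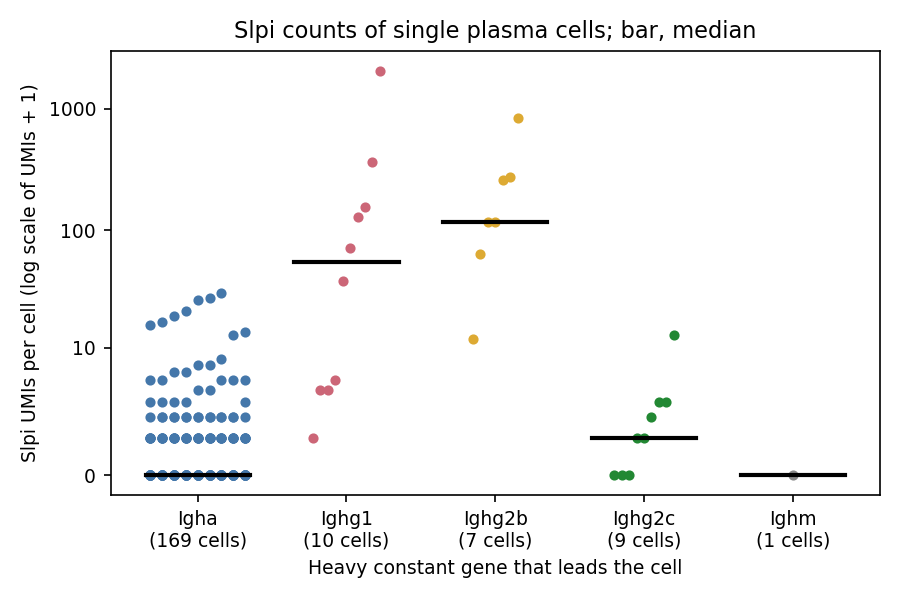
Each point is 1 plasma cell, placed by its Slpi UMIs on a log scale of UMIs + 1 and by the heavy constant gene that leads it; bars are medians. Cells led by Ighg1 and Ighg2b reach 2041 and 833 UMIs, while those led by Igha stay at or under 30.

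Among 12 counted surface and adhesion genes 4 were at least 2-fold higher in IgA cells and 1 was lower. Of 3 counted chemokine and egress receptors 2 were higher. Among all genes 15.7% were higher and 3.78% lower, and both lists are small. Crip1, a small LIM domain protein, had 10453 CPM in IgA cells and 2109 in the others, or 4.96-fold (4.36 to 5.65). Its median was 15 UMIs in IgA cells, 4.5 in Ighg1, 4 in Ighg2b and 2 in Ighg2c cells, with overlap between all groups. Crip1 also differed by the cycling call described below. It had 11661 CPM and a median of 40 UMIs in cycling plasma cells, against 6152 CPM and 3 UMIs in the other plasma cells. Ccr10 had a UMI in 91 of 169 IgA cells and in 4 of 27 others, and its level was 4.67-fold higher (2.23 to 11.8). Itgb7 had a UMI in 128 of 169 and in 10 of 27, and its level was 2.16-fold higher (1.41 to 3.45). Klf2 was 5.20-fold higher (3.13 to 9.36). Median depth outside immunoglobulin was 3630 UMIs in IgA cells and 3644 in the others.

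The rule for named genes added genes of low count. Ahnak, a large scaffold protein, had 128 UMIs against 2, or 9.55-fold (2.59 to 79.7). Crip2 had 64 UMIs in 26 IgA cells and 0 in the others, at least 3.18-fold higher against a floor of 3 counts over the group. Zc3h14, a poly(A) binding protein, had 62 UMIs in 46 cells and 0 in the others, at least 3.08-fold higher. Ccl5 had 92 UMIs against 0, but 80 of them lay in 1 cell.

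The 5 genes that the same rule named as lower in IgA cells were Wfdc17, Lpl, Lrp1, Grn and Oosp1. Of 222 Wfdc17 UMIs in the other classes 205 lay in 1 cell, as did 34 of 38 for Lpl and 40 of 48 for Lrp1. All 9 counted macrophage markers were at least 2-fold lower in IgA cells, with a range of 0 to 385 UMIs per cell in the other classes and 0 to 299 in IgA. Without the 6 cells that passed another class's gate, none of 5 counted macrophage markers was lower, Wfdc17 and Lpl had log2 ratios of -0.19 and 0.01, and Ccl5 had 12 UMIs. Without them Slpi had -6.53, Crip1 2.27 and Grn -2.26. Grn and Oosp1 had 35 and 21 UMIs in the 27 cells.

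Ly6a (Sca-1) was lower in IgA cells, at 491 CPM against 1936, or 3.94-fold (3.33 to 4.66). Ms4a1 had 11 UMIs in 6 IgA cells and 25 UMIs in 8 others, 15.2-fold lower (7.23 to 34.3). Hepatocyte markers, at 1207 CPM in IgA cells and 493 in the others, had 6 of 8 genes higher in IgA, beside 15.7% of all genes. Their part in the differences was not tested.

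Few genes of the secretory groups differed between the classes. Of 21 translocation and 15 degradation genes none was called in either direction. Called were 1 of 28 chaperones, 1 of 15 glycosylation genes and 1 of 26 transport genes. Among all 4047 genes 19.4% were called in either direction. Xbp1 had a ratio of 1.21 (1.09 to 1.35), Irf4 1.02 (0.645 to 1.70) and Prdm1 1.18 (0.708 to 2.08). Those called were the chaperone gene Hyou1 (2.15-fold higher in IgA cells, 1.14 to 4.58), Ganab (2.11-fold, 0.932 to 5.92) and Mcfd2 (2.54-fold from 34 and 2 UMIs). Of the 11 plasma cell transcription factors 1 was called, Ikzf3, at 63 UMIs against 4 (2.35-fold higher in IgA cells, 0.874 to 8.89). The intervals of Irf4, Prdm1, Ganab, Mcfd2 and Ikzf3 span a ratio of 1.

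Cycling transcripts divided the plasma cells. A cell was called cycling at 3 or more UMIs over 10 genes of cell division; the call is of transcripts, and division was not measured. By this rule 81 of 196 plasma cells were called, or 41.3% (34.4 to 48.6), against 40.4% of the other cells. The counts were spread out: 67 cells had 0 such UMIs, 48 had 1 or 2, 12 had 3 or 4, and 41 had at least 20, up to 115. After thinning to 1000 UMIs outside immunoglobulin the share was 23.5% (17.7 to 30.04) in plasma cells and 24.9% in the others, 12.5% in macrophage-marker cells and 51.2% in hepatocyte-marker cells.

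Cycling was found in every class. It was called in 71 of 169 IgA cells (42.0%) and in 10 of 27 others (37.0%, 19.4 to 57.6). Ighg1 had 5 of 10, Ighg2b 2 of 7 and Ighg2c 2 of 9. The interval of the other classes is wide, from 27 cells of 1 pool, and a difference in share was not tested. The level of cycle genes was higher in IgA cells, with 12 of 29 counted genes at least 2-fold higher and none lower (median log2 ratio 0.73; 5533 against 3267 CPM summed), where 15.7% of all genes were higher. Ccnb2, a mitotic cyclin, had 339 UMIs against 14, or 3.61-fold (2.12 to 6.68). Per cell, the 10 genes of the call had a median of 1 UMI in both groups and means of 14.4 and 5.89 UMIs, with no test made. Among the most frequent kappa genes, 10 of the 19 cells led by Igkv6-23 cycled, as did 9 of the 13 led by Igkv1-117. For Igkv19-93 it was 2 of 14 cells and for Igkv12-46 3 of 11. Over all plasma cells the share was 41.3%. These groups are small, and no test was made between variable genes.

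Cycling plasma cells held less immunoglobulin RNA. The immunoglobulin share had a median of 35.8% (11.2 to 84.7) in the 81 cycling cells and 67.9% (1.61 to 89.8) in the 115 others. It passed 50% in 15 of 81 and in 84 of 115 cells, and the ranges overlap. Their UMIs outside immunoglobulin were more, with medians of 6329 and 2734, while total UMIs were close, at 9377 and 8265. Detected genes had medians of 2177 and 1291. In counts per cell, heavy constant UMIs had medians of 876 and 1430. The part of depth in the call was not tested, and the share thinned to equal depth stands above.

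**Figure D5:**
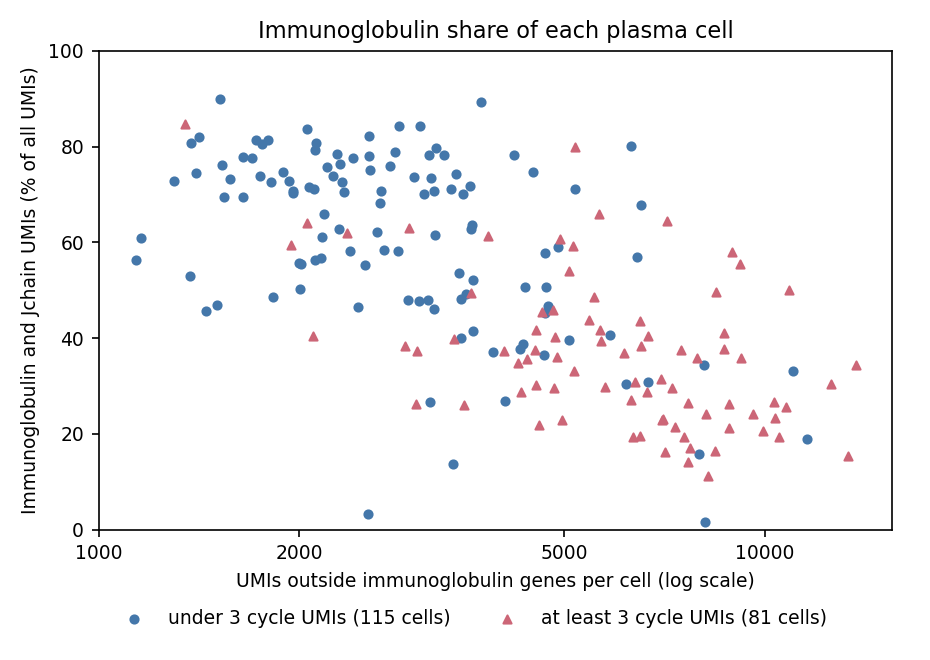
Each point is 1 plasma cell, with its UMIs outside immunoglobulin genes on a log scale and the percent of its UMIs from immunoglobulin genes and Jchain. Cells with at least 3 cycle UMIs (triangles, 81 cells) lie toward more UMIs and a lower share, with a median of 35.8% against 67.9%, and overlap with the rest.

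Between these groups 4047 genes were compared, of which 12.3% were at least 2-fold higher in cycling cells and 6.38% lower. All 29 counted cell cycle genes were higher, 10 of which belong to the call. Genes outside the call included Pclaf, a partner of the DNA clamp PCNA, with 534 UMIs against 7, or 54.3-fold (26.2 to 136), and Hmgb2, a chromatin protein of dividing cells, with 835 against 16, or 37.2-fold (22.8 to 65.3). Top2a, Ube2c and Ccnb2 were next, and are genes of the call. Klf2 was 2.38-fold higher (1.94 to 2.93).

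The direction of many other genes depends on the total by which counts are scaled. With all UMIs in the total, 1799 genes were at least 2-fold higher in cycling cells and 53 lower, against 496 and 258, and the median log2 ratio of all genes went from 0.08 to 0.59. Both scales are therefore given.

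Per UMIs outside immunoglobulin, Jchain, Sdc1 and some genes of ER-associated degradation were lower in cycling cells. Jchain, a gene of the rule, had 42761 CPM against 143435. Sdc1 was 2.96-fold lower (2.08 to 4.26), Herpud1 2.50-fold, Edem1 2.35-fold and Ly6c2 3.30-fold. Of 15 degradation genes 4 were at least 2-fold lower, of 28 chaperones 3, of 21 translocation genes 1, and of glycosylation and transport genes none. Among all genes 6.38% were lower, so the chaperone and translocation counts are small beside that share. Xbp1 was 1.61-fold lower (1.504 to 1.72), Prdm1 1.81-fold (1.30 to 2.53), and Irf4 had a ratio of 0.966 (0.702 to 1.33). Of 11 plasma cell transcription factors 1 was at least 2-fold lower, Bhlha15, with 11 UMIs against 33 (4.21-fold, 2.08 to 9.24).

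Per all UMIs these differences shrank or turned. No degradation, chaperone or translocation gene was at least 2-fold lower. At least 2-fold higher in cycling cells were 2 of 28 chaperone genes, 5 of 21 translocation genes and 4 of 15 glycosylation genes. Among all genes 1799 of 4047 were higher, so none of these groups reached the share of all genes. Their median log2 ratios were 0.38, 0.61 and 0.78, beside 0.59 for all genes. Xbp1 was then 1.09-fold higher (1.02 to 1.17) and Irf4 1.69-fold higher (1.23 to 2.34), and Prdm1 had a ratio of 0.969 (0.692 to 1.35). Counts per cell of Xbp1 had medians of 15 UMIs in cycling cells and 12 in the others. Jchain stayed lower, 1.91-fold, as did Ly6c2 (1.88-fold), Sdc1 (1.69-fold, 1.18 to 2.43), Herpud1 (1.43-fold), Edem1 (1.34-fold) and Bhlha15 (2.40-fold, 1.18 to 5.27). Klf2 was 4.17-fold higher.

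Lowest by the rule were Wfdc17, Prg2, Cd5l, Cfp and Lrp1. All but Prg2 are high in macrophages, and all 9 counted macrophage markers were lower in cycling cells, at 423 CPM against 2828. Without the 6 cells at other gates, Wfdc17, Cd5l, Cfp and Lrp1 had log2 ratios of -1.12, -1.16, -0.90 and -1.04 and Prg2 had -3.34. Erythroid markers were also lower, at 7226 CPM against 18836, with the same median of 35 UMIs per cell. The total outside immunoglobulin, by which CPM is scaled, was lower in the other cells (median 2734 against 6329 UMIs). With all UMIs in the total, all 9 macrophage markers were still at least 2-fold lower, with the 6 cells at other gates kept. Without those 6 cells, per UMIs outside immunoglobulin, 5 macrophage markers were counted and 4 were lower, at 410 CPM against 879. Macrophage marker UMIs had the same median of 2 per cell in cycling and other plasma cells.

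Prg2 (chr2:84980461-84983632), which encodes the major basic protein of eosinophil granules, had 13 UMIs in 7 cycling cells and 157 UMIs in 32 of the others, 17.0-fold lower (9.63 to 32.6), or 9.68-fold with all UMIs in the total. The highest cell had 36. All other 4421 cells together had 7 Prg2 UMIs, so the transcript lay almost wholly in plasma cells, although all 7 counted basophil and mast cell markers were at least 2-fold lower there.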

How the data were processed

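Single cells of mouse liver were barcoded in Singleron GEXSCOPE microwells and sequenced on a NovaSeq6000, per the labels' protocols. The authors deposited raw UMI counts per gene and cell as a sparse matrix, in which every value was found to be a whole number. Reads were placed on GRCm38 per the submitters' processing notes, whereas the aligner, the counter and the calling of cells were not given in the sources used here.

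Of 4694 cells, 77 with fewer than 200 genes were left out. All 4694 barcodes are unique. Immunoglobulin genes and Jchain (396 rows) were left out of the CPM total. Ratios of summed counts carry conditional exact binomial 95% intervals, and shares exact Clopper-Pearson ones. A gene is called at a ratio of 2 or more where the summed count is 30 or more. With 1 pooled matrix no test was made.

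Named genes are the 15 highest and 10 lowest by log2 ratio with a 20 CPM offset (5 and 5 within plasma cells) among those at 50 CPM or more on either side, leaving out rule, immunoglobulin, mitochondrial, ribosomal and haemoglobin genes, unnamed gene models and other cells' markers, plus members of 37 gene lists (440 of 443 symbols found). The members and lists were chosen with earlier results of these data known, and the marker gates of other cell classes after the data were seen. No doublet caller was run; plasma cells at another class's gate, B cells excepted, were left out as an alternative. Gene positions are from GENCODE for GRCm38. Python 3.11.15 with numpy 2.4.6, scipy 1.17.1, pandas 2.3.3 and matplotlib 3.10.9 was used, and the scripts were tested on simulated data.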

Additional observations from a re-analysis of the deposited data

How the results depend on the processing

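Shares of plasma cells and of classes, and the sides of most ratios, held under the alternatives run: other cutoffs of the rule (194 and 193 cells), without the 5% deepest cells (187), without cells at the gate of another class than B cells (190, chosen after seeing the data), a 5 CPM offset and a class cutoff of 80%. With each gene counted once per comparison and setting, 409 ratios stayed within the counting interval of their main value, 116 moved and 10 changed sign. Some genes are among the 10 more than once. With all UMIs in the total, 401 genes were at least 2-fold higher in plasma cells and 8859 lower, and the log2 ratio of Slpi against the other cells went from 0.91 to -0.18. Between IgA and other classes, Wfdc17 went to 0.67 with a Jchain minimum of 10 or a minimum of 5 for the other markers, and Lpl to 0.0405 and 0.0424 under these and to 0.0133 without cells at another class's gate. These settings remove the cell that held most of their counts. A summed count of at least 10 gave 1577 genes higher in IgA cells and 590 lower. Among cells with fewer than 3 cycle UMIs there were 223 higher and 86 lower of 1887 tested. Of the 634 higher genes of the full comparison 137 had enough counts there, and 89 of these were again at least 2-fold higher. For cycling against other plasma cells, all UMIs in the total (chosen after seeing the data) gave 1799 genes higher and 53 lower. The log2 ratios of Xbp1, Hspa5, Ly6a and Slpi turned to 0.12, 0.39, 0.37 and 0.53, and the medians of ER-associated degradation, the PERK and CHOP arm and immediate early genes to 0.22, 0.067 and 0.058. The cycling share was 18.4% after thinning to 1000 UMIs in all and 23.5% after thinning to 1000 outside immunoglobulin. No paired analysis was possible because the 6 labelled samples lie in 1 matrix whose barcodes carry no sample. The main limits are that 1 pool gives no spread between mice, that the 27 cells of other classes make single cells weigh heavily, and that immunoglobulin counts were also met in cells of other classes, from a source that was not tested.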

Other observations

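The lambda variable gene Iglv1 was present in kappa plasma cells. It had a UMI in 175 of the 188 kappa cells (93.1%), with a median of 13 UMIs and up to 483, and in 81 of the 4421 other cells (1.83%). The 8 lambda cells had a median of 24.5 Iglv1 UMIs. Iglc3 had a UMI in 170 of the 188 kappa cells, with a median of 5, and in 112 of the other cells. By contrast Iglc1 had a median of 3 UMIs in kappa cells and 2160.5 in lambda cells.

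Partners of plasma cells were thinly covered in the rest of the liver. Pigr, the receptor that carries polymeric IgA, had 194 UMIs in the 461 hepatocyte-marker cells (83.2 CPM). Tnfsf13b (BAFF) had 43 UMIs in neutrophil-marker cells (40.3 CPM), and Tnfsf13 (APRIL) had 14 UMIs in macrophage-marker cells. Cxcl12 had 150 UMIs in hepatocyte-marker cells (64.3 CPM). Vcam1, a ligand of the integrin that contains the Itga4 product, had 320 CPM in macrophage-marker and 420 CPM in mesothelial-marker cells. Ccl28, a ligand of CCR10, had 0 UMIs in all these classes.

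Genes that mark plasmacytoid dendritic cells were partly shared. Tcf4, Ly6d and Runx2 were 4.75-fold, 7.09-fold and 5.93-fold higher in plasma cells than in the other cells, while Klk1 had 0 UMIs and Cox6a2 had 1. In the 12 cells with at least 3 Siglech UMIs, Xbp1 had 377 CPM, against 3818 CPM in plasma cells. Mzb1 had 377 and 8694 CPM, but Mzb1 and Siglech are genes of the rule, so that gap is no finding.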
